A study of Homo sapiens with 2 samples.

Results

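The genes described here are the p63 family and the Notch pathway members TP63, TP73, NOTCH1, NOTCH2, NOTCH3, JAG1, JAG2, DLL1, HES1 and HEY1. They were taken by name for their part in basal mammary identity and not for their values, though earlier results of these data were known. These 10 genes were found, each under a single Ensembl identifier, among the 58735 identifiers of both count tables. The RNA came from MCF10a-Snail-ER cells, a derivative of the non-tumorigenic human mammary epithelial line MCF10a that stably carries the epithelial repressor Snail fused to the estrogen receptor. All cells had been given 100 nM tamoxifen for 1 day to switch the fusion protein on and start an epithelial-to-mesenchymal transition. One library was made for Nanopore direct RNA sequencing on a MinION, which reads native polyadenylated strands. The other was an Illumina TruSeq stranded mRNA library, made from fragmented RNA copied into cDNA. Each platform had 1 library and there was no untreated library, so the values below give levels in tamoxifen-treated cells and the difference between 2 libraries of matched RNA, not a response to Snail. The promoter that drives the fusion gene is not given in the sources used here. No value has a replicate, and each test and interval covers counting error only.

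p63, the product of TP63, is a transcription factor of the p53 family that basal cells of the mammary gland and other stratified epithelia need to keep their identity. Notch is a receptor cut after it binds a Jagged or Delta ligand on a neighbouring cell. Its freed inner part enters the nucleus, joins the DNA-binding protein RBPJ and a Mastermind cofactor, and switches on HES and HEY genes, which code for transcriptional repressors. In the mammary epithelium p63 marks the basal layer, and Notch signalling is known for its part in the choice between basal and luminal fate.

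Depth was 403235 counts for Nanopore and 191741714 for Illumina. Levels are given as counts per 1000000 counts of the library (CPM). In the Nanopore library 1 count was worth 2.48 CPM, against 0.00522 CPM in the Illumina library, and 3 counts, taken as the limit that a count of 0 allows, were 7.44 and 0.0156 CPM. The labelled mammary epithelial line was checked against marker levels, given here as Illumina transcripts per 1000000 (TPM, counts divided by the union of annotated exons and scaled to a fixed sum). All 12 basal markers were detected in both libraries, with KRT5 at 948 TPM, KRT14 at 734 and KRT17 at 262. Of 12 luminal markers, the keratins KRT7, KRT18 and KRT8 were high (799, 284 and 82.3 TPM), GATA3 was at 10.3 TPM, and ELF5, PGR and KIT were at 0 in both libraries. Contractile myoepithelial markers were led by TAGLN at 29.0 TPM and ACTA2 at 9.22, with OXTR at 0.927, MYH11 at 0.279 and CNN1 at 0 in both. Among fibroblast markers DCN stood at 5.54 TPM, COL1A1 at 1.48, LUM at 1.25 and COL1A2 at 0.193. Endothelial markers were no higher than 1.78 TPM (PECAM1), with KDR at 0.619, TEK at 0.135, CDH5 at 0.0258 and CLDN5 at 0 in both. Among immune markers CD68 was at 56.4 TPM and CD14 at 18.0, while LYZ (0.0328) and PTPRC (0.00183) were near 0 and CD3E was at 0 in both.

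All 10 members had Illumina counts, 41972 in all, and 8 had Nanopore counts, 111 in all. HES1 alone held 64.9% of the members' Nanopore counts and 10.4% of their Illumina counts. The other members had at most 16 Nanopore counts each, so single counts weigh on every Nanopore value except that of HES1. On the Illumina TPM scale the members fell in the order HES1 (29.97), NOTCH2 (15.1), TP63 (12.03), JAG1 (10.3), JAG2 (5.83), NOTCH1 (2.75), HEY1 (1.45), DLL1 (0.991), TP73 (0.549) and NOTCH3 (0.530). Each neighbouring pair in that order differed beyond counting error except TP73 and NOTCH3 (adjusted p = 0.888, two-sided exact binomial test on the pair's counts given their lengths, Benjamini-Hochberg adjusted over 26 such tests). With the length of the canonical transcript (MANE Select or Ensembl canonical) in place of the exon union, HEY1 (2.07 TPM) moved up beside NOTCH1 (2.06), and those neighbours did not differ (exact adjusted p = 1). With the mean length of all annotated transcripts, HES1 (21.2 TPM) stood below NOTCH2 (50.6) and JAG1 (22.1). By union exonic length HES1 stood above 82.7% and TP63 above 68.1% of protein-coding genes in Illumina TPM, counting genes at 0.

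**Figure D1:**
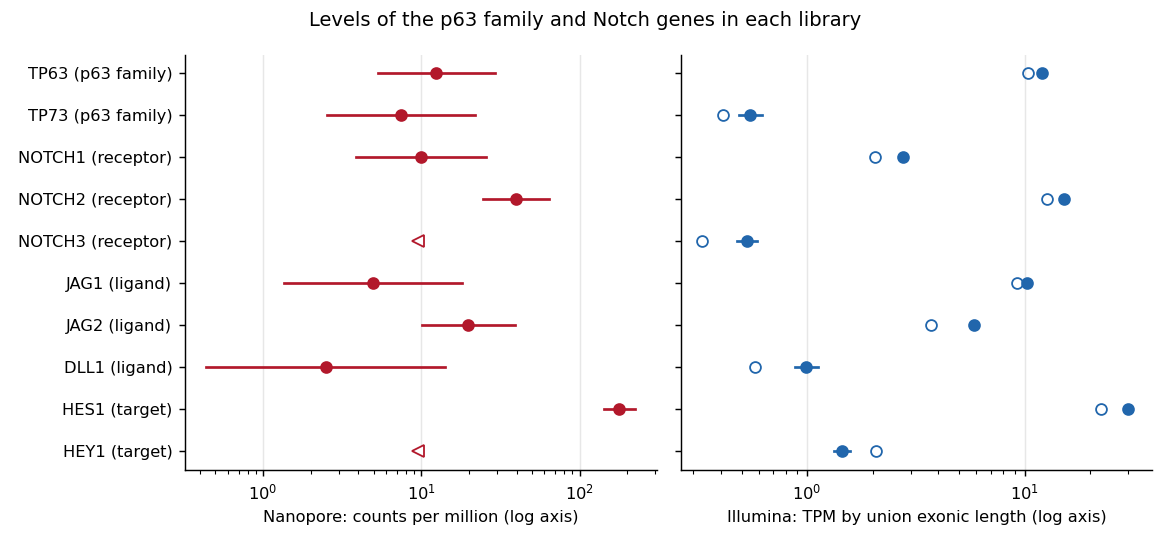
Level of each member in the Nanopore library (left, CPM) and the Illumina library (right, TPM), both on log axes; filled points with bars are values with 95% Wilson intervals, open circles on the right are TPM by canonical transcript length, and open triangles mark the upper bound where no Nanopore count was present. HES1 is highest on the scales shown, and the Nanopore intervals of the members from JAG2 to DLL1 overlap widely.

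By Nanopore CPM the order was HES1 (178.6), NOTCH2 (39.7), JAG2 (19.8), TP63 (12.4), NOTCH1 (9.92), TP73 (7.44), JAG1 (4.96) and DLL1 (2.48), with HEY1 and NOTCH3 at 0. In that order the step from HES1 to NOTCH2 was beyond counting error (exact adjusted p = 2.2e-09), and none of the later steps was, from NOTCH2 against JAG2 (exact adjusted p = 0.219) downwards. A direct RNA read is a strand rather than a fragment, so Nanopore CPM was not divided by length.

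The libraries were compared on a log2 ratio of Nanopore to Illumina CPM, with 1 CPM added to each value. Counts were tested gene by gene with an exact binomial test, two-sided and conditional on the library totals, and p-values were Benjamini-Hochberg adjusted over the 12414 genes whose CPM averaged 5 or more. Of the 10 members, 6 reached that average: TP63, NOTCH1, NOTCH2, JAG1, JAG2 and HES1. TP73, NOTCH3, DLL1 and HEY1 did not. HES1 was called higher by Nanopore and JAG1 higher by Illumina, by an adjusted p-value under 0.05 with a ratio of at least 4-fold. Among all tested genes 12.9% were called higher by Nanopore and 7.31% higher by Illumina. By the p-value alone, 1 member (HES1) was higher by Nanopore and 3 (TP63, NOTCH2 and JAG1) were higher by Illumina, against 20.2% and 27.2% of all tested genes. The median log2 ratio of the 6 members was −0.77, beside −0.42 over all tested genes. On a per-length scale, with Illumina TPM in place of Illumina CPM, HES1 alone of the 6 was still called, where 15.1% of 12350 genes were called higher by Nanopore and 3.09% higher by Illumina. By the p-value alone, NOTCH2, JAG2 and HES1 were then higher by Nanopore and no member was higher by Illumina, against 31.2% and 10.6% of those genes. The median log2 ratio per length was 1.44 over the 6 members, above the 0.42 of those genes, where on CPM it was below. Over tested genes the median per canonical transcript length rose with length, from 0.02 under 2000 bases to 1.45 at 8000 or more. All of the 6 but HES1 had canonical transcripts of 4000 bases or more. With canonical transcript length JAG2 was called as well as HES1, where the shares called were 15.6% and 2.53%.

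**Figure D2:**
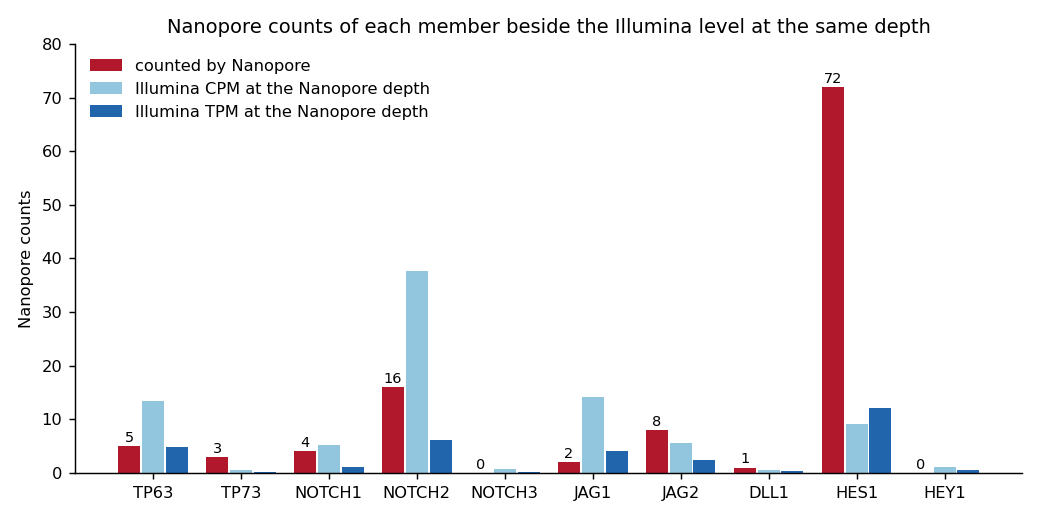
Nanopore counts of each member (red, with the number above) beside the count its Illumina CPM (light blue) or Illumina TPM (dark blue) would give at the Nanopore depth. HES1, with 72 counts, stands above both levels, and JAG1, with 2 counts, stands below both.

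TP63 (ENSG00000073282, chromosome 3, 189631389 to 189897276, hg38, plus strand) had 5 Nanopore counts, 12.4 CPM (95% Wilson interval 5.30 to 29.0), and 6368 Illumina counts, 33.2 CPM (32.4 to 34.0). At the Nanopore depth the Illumina CPM would give 13.4 counts and the Illumina TPM 4.85 counts. The log2 ratio of CPM was −1.35, past the p-value threshold but not 4-fold (exact adjusted p = 0.0368). Under other scalings of the libraries, or with no filter on low genes, the log2 ratio lay between −1.35 and −1.23 with an adjusted p between 0.0547 and 0.0730, no longer past the threshold. With a filter at 20 CPM the adjusted p was 0.0305. Per union exonic length the log2 ratio was 0.04 (exact adjusted p = 1). The gene has 14 annotated transcripts, among them forms with and without the N-terminal transactivation domain. The tables give 1 count per gene, so these forms could not be told apart.

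TP73 (ENSG00000078900, chromosome 1, 3652516 to 3736201, plus strand) codes for p73, a paralog of p63 known for its part in multiciliated cells and neurons. It had 3 Nanopore counts, 7.44 CPM (2.53 to 21.9), and 263 Illumina counts, 1.37 CPM (1.22 to 1.55). The ratio of the CPM values was 5.42 with a counting interval of 1.11 to 16.03, and the exact adjusted p over all genes with a count was 0.142. Per union exonic length the ratio was 13.6 with a counting interval of 2.78 to 40.04, past the p-value threshold over all genes with a count (exact adjusted p = 0.0187). TP63 held 96.0% of the Illumina counts of the pair (Wilson interval 95.5 to 96.5%) and 5 of the 8 Nanopore counts, 62.5% (30.6 to 86.3%). The shares differed between libraries (Fisher's exact test, two-sided, adjusted p = 0.00613 over 8 shares of this kind), and the Illumina share per length was 95.6%. TP73 shares 633 exonic bases with the antisense gene TP73-AS1, where 2 Nanopore and 3341 Illumina counts were found. In the canonical TP73 transcript 10.7% of 50-base words also occur in TP73-AS1. WRAP73, which overlaps the start of TP73 on the opposite strand without shared exonic bases, had 0 Nanopore and 2485 Illumina counts. The part of these neighbours in the TP73 counts was not tested.

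NOTCH2 was the receptor with the highest level in both libraries. NOTCH2 (ENSG00000134250, chromosome 1, 119911553 to 120100779, minus strand) had 16 Nanopore counts, 39.7 CPM (24.4 to 64.5), and 17934 Illumina counts, 93.5 CPM (92.2 to 94.9). The Illumina CPM would give 37.7 counts at the Nanopore depth, and the log2 ratio was −1.22 (exact adjusted p = 0.00043). Per length the direction was opposite, with a log2 ratio of 1.33 (exact adjusted p = 0.00397), and with the mean length of all annotated NOTCH2 transcripts it was −0.34 (exact adjusted p = 0.564). The sign of the NOTCH2 difference therefore turned on the length used. The partial copy NOTCH2NLA had 3 Nanopore and 524 Illumina counts, 2.92% of the NOTCH2 Illumina counts. In the canonical NOTCH2 transcript 4.86% of 50-base words occur in another gene, most of them in NOTCH2NLA, so a small part of the NOTCH2 counts could be split between them.

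NOTCH1 (ENSG00000148400, chromosome 9, 136494433 to 136546048, minus strand), the receptor best known from squamous epithelia and T-cell leukaemia, had 4 Nanopore counts, 9.92 CPM (3.86 to 25.5), and 2442 Illumina counts, 12.7 CPM (12.2 to 13.3). The log2 ratio was −0.33 and no difference was detectable at this depth (exact adjusted p = 0.924; ratio of CPM 0.779, counting interval 0.212 to 2.00). NOTCH3 (ENSG00000074181, chromosome 19, 15159038 to 15200995, minus strand), known from vascular smooth muscle, had no Nanopore count and 353 Illumina counts, 1.84 CPM (1.66 to 2.04), which is under the Nanopore limit of 7.44 CPM. Of the 20 Nanopore counts of the receptors NOTCH2 held 16 (Wilson interval of its share 58.4 to 91.9%) and NOTCH1 held 4 (8.07 to 41.6%), against 86.5% and 11.8% of the Illumina counts. Neither share differed between libraries (Fisher's exact adjusted p = 0.383 and 0.380). Per length the Illumina shares were 82.2% for NOTCH2, 15.0% for NOTCH1 and 2.88% for NOTCH3, so NOTCH2 was the main receptor on every scale used.

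By point values the ligands JAG1 and JAG2 stood in opposite order in the libraries. Their Nanopore order rests on 2 and 8 counts with overlapping intervals and was not tested. JAG1 (ENSG00000101384, chromosome 20, 10637684 to 10673999, minus strand) had 2 Nanopore counts, 4.96 CPM (1.36 to 18.1), and 6774 Illumina counts, 35.3 CPM (34.5 to 36.2). The Illumina CPM would give 14.2 counts at the Nanopore depth. The ratio of CPM was 0.140 with a counting interval of 0.0170 to 0.507, and the log2 ratio was −2.61 (exact adjusted p = 0.000563). Per union exonic length the log2 ratio was −0.92 and not past the threshold (exact adjusted p = 0.605). With the mean length of all annotated JAG1 transcripts it was −1.95, past the threshold and just under 4-fold (exact adjusted p = 0.0360).

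JAG2 (ENSG00000184916, chromosome 14, 105140982 to 105168824, minus strand), a Jagged ligand that binds the same receptors, had 8 Nanopore counts, 19.8 CPM (10.1 to 39.2), and 2639 Illumina counts, 13.8 CPM (13.2 to 14.3). Its log2 ratio was 0.50 (exact adjusted p = 0.519). Per union exonic length the log2 ratio was 1.61 (exact adjusted p = 0.0164). Per canonical transcript length the log2 ratio was 2.15 (exact adjusted p = 0.00121), which is past 4-fold. Of the 11 Nanopore counts of the ligands, JAG2 held 72.7% (43.4 to 90.3%) and JAG1 18.2% (5.14 to 47.7%), against 27.3% and 69.97% of the Illumina counts. Both shares differed between libraries (Fisher's exact adjusted p = 0.0059 for JAG2 and 0.00235 for JAG1). Per length the Illumina shares were 34.1% for JAG2 and 60.1% for JAG1, and the Nanopore shares still differed from them (exact binomial adjusted p = 0.0272 for each). The share tests of JAG1 and JAG2 rest on the same 11 Nanopore counts, so they are not independent of each other.

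The lncRNA gene ENSG00000257622 (chromosome 14, 105152194 to 105181194) lies on the same strand as JAG2 and shares 469 exonic bases with it. It had 7 Nanopore counts, close to the 8 of JAG2, but 321 Illumina counts, 12.2% of those of JAG2. In the canonical JAG2 transcript 7.36% of 50-base words occur in that lncRNA. Whether the same Nanopore reads were counted for both genes was not tested. DLL1 (ENSG00000198719, chromosome 6, 170282206 to 170306565, minus strand), a Delta ligand, had 1 Nanopore count, 2.48 CPM (0.438 to 14.0), and 268 Illumina counts, 1.40 CPM (1.24 to 1.58). Its ratio of CPM was 1.77 with a counting interval of 0.0448 to 9.97, so the depth could show no difference. DLL1 shares 370 exonic bases with the antisense neighbour FAM120B, where 2 Nanopore and 5430 Illumina counts were found, and 99.9% of the canonical DLL1 transcript aligned to an alternate contig of hg38. No other member's canonical transcript aligned to an alternate contig.

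**Figure D3:**
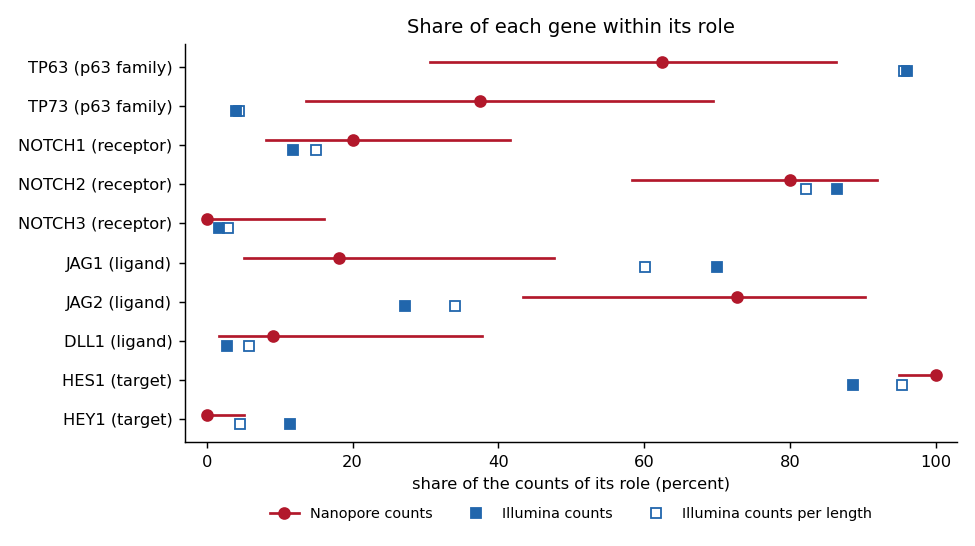
Share of each gene in the counts of its role (percent): red points are Nanopore counts with 95% Wilson intervals, filled squares are Illumina counts and open squares are Illumina counts per union exonic length. By point values JAG1 and JAG2 change places between the libraries, with Nanopore intervals that overlap, while NOTCH2 holds most receptor counts in both.

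HES1, a basic helix-loop-helix repressor and a direct target of Notch and RBPJ, had the largest log2 ratio of CPM among the members in either direction. HES1 (ENSG00000114315, chromosome 3, 194136148 to 194138732, plus strand) had 72 Nanopore counts, 178.6 CPM (141.8 to 224.8), and 4369 Illumina counts, 22.8 CPM (22.1 to 23.5). At the Nanopore depth its Illumina CPM would give 9.19 counts and its TPM 12.1 counts. The ratio of CPM was 7.84 with a counting interval of 6.12 to 9.89, and the log2 ratio was 2.92 (exact adjusted p = 3.3e-37). Per length the log2 ratio was 2.54 (exact adjusted p = 5.79e-30), and over all scalings, lengths and pseudocounts tried it lay between 2.39 and 3.04.

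The region before the HES1 start is shown because HES1 is a textbook target of RBPJ. HES1 was also the member with the highest Nanopore CPM and the highest Illumina TPM by union or canonical length. The 250 bases before the annotated start (RefSeq, GRCh38.p14, chr3:194135898-194136147, plus strand) are given with each match to TGGGAA, the core of the RBPJ recognition sequence, in capitals.
HES1: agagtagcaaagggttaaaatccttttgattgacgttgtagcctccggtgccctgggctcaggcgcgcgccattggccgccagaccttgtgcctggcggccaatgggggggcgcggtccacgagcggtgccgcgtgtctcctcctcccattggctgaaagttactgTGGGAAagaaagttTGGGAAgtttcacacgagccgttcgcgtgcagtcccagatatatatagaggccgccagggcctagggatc
The matches, searched on both strands, lie on the plus strand 84 to 79 and 70 to 65 bases before the start, 14 bases apart. At least 1 match was present in 20.8% and at least 2 in 2.9% of 35116 RefSeq promoter windows of 250 bases. The table held 10 windows for 8 of the members. Besides HES1, a single TP73 window had 1 match, and those of TP63, NOTCH1, NOTCH2, NOTCH3, JAG1 and JAG2 had none. The TP63 window lies before the annotated start of the gene, and no start inside TP63 was searched. A match describes the letters only, and the count tables hold no binding data.

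No annotated gene overlaps HES1, no 50-base word of its canonical transcript occurs in another gene, and its GC content of 49.97% was close to the median of 48.2% over tested genes. Of 2810 tested genes that overlap no other gene, 86 (3.06%) were called higher by Nanopore and 47 had a higher log2 ratio than HES1. The canonical HES1 transcript has 1575 bases. Among the 4130 tested genes under 2000 bases the median log2 ratio was 0.45 (quartiles −0.42 to 2.40), and 28.3% were called higher by Nanopore, so HES1 lay above the upper quartile of its length class. HEY1 (ENSG00000164683, chromosome 8, 79762371 to 79767857, minus strand), a related repressor, had no Nanopore count and 562 Illumina counts, 2.93 CPM (2.70 to 3.18), under the Nanopore limit. HES1 held 88.6% (87.7 to 89.5%) of the Illumina counts of the pair and all 72 Nanopore counts (94.9 to 100%). The shares differed by counts (Fisher's exact adjusted p = 0.00235) but not against the Illumina share per union exonic length, 95.4% (exact binomial adjusted p = 0.163). Against the share per canonical transcript length, 91.6%, the difference was past the threshold (exact binomial adjusted p = 0.0086).

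**Figure D4:**
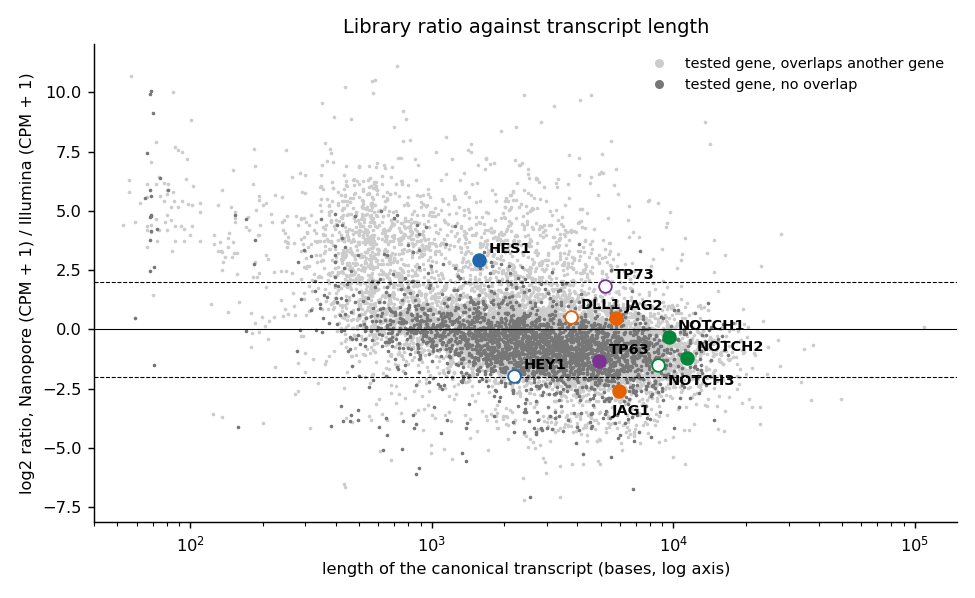
Log2 ratio of Nanopore to Illumina CPM, each plus 1, against canonical transcript length (log axis) for the tested genes with an annotated length, light grey where a gene overlaps another and dark grey where not; coloured points are members (purple p63 family, green receptors, orange ligands, blue targets), open where the mean was under 5 CPM, and dashed lines mark 4-fold. HES1 lies at 2.92 and JAG1 at −2.61, outside the dashed lines, and the other tested members lie between them.

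The other tested members fall in classes of longer transcripts. For canonical transcripts of 4000 to 6000 bases, the class of TP63, JAG1 and JAG2, the median log2 ratio of 2278 tested genes was −0.86 (quartiles −1.49 to −0.22). TP63 at −1.35 lay within those quartiles, JAG1 at −2.61 below them and JAG2 at 0.50 above them. For the 916 tested genes of 8000 bases or more the median was −1.04 (quartiles −1.68 to −0.44), with NOTCH2 at −1.22 inside and NOTCH1 at −0.33 just above the quartiles. Per canonical transcript length the class medians were 0.69 and 1.45. On that scale TP63 was at 0.23, JAG1 at −0.78 and JAG2 at 2.15, with NOTCH2 at 1.57 and NOTCH1 at 1.83. GC content ranged over the members from 42.4% in TP63 to 64.1% in JAG2, with NOTCH1 at 63.5% and NOTCH3 at 63.1%. Of the 10 members 8 overlap another annotated gene, 16 overlapping genes in all, and 5 of these are microRNA genes. MIR944 in TP63, MIR4673 in NOTCH1, MIR6795 in NOTCH3 and MIR6870 in JAG1 were at 0 in both libraries, and MIR6765 in JAG2 had 2 Illumina counts.

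The rest of the Notch pathway was read from a list of 50 other genes, of which 38 had Nanopore counts and 46 Illumina counts. Of the 32 tested, 2 were called higher by Nanopore and 3 higher by Illumina, against 12.9% and 7.31% of all tested genes. Of the 2 higher by Nanopore, HES4 reached the test only through its Nanopore value. The median log2 ratio of the 32 was −0.63, with 23 below 0, beside −0.42 and 63.2% below 0 for all tested genes. Per union exonic length their median was 0.72, above the 0.42 of all genes tested on that scale. Further ligands were led by DNER, a ligand-like transmembrane protein, at 51.7 TPM, with DLK2 at 6.92, DLL3 at 3.0, DLL4 at 0.143 and DLK1 at 0 in both libraries. DNER had 27 Nanopore counts, 67.0 CPM, and 75.04 CPM by Illumina, a log2 ratio of −0.16 (exact adjusted p = 0.751).

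The machinery that cuts and glycosylates Notch was present throughout, with all 14 genes detected by Illumina and 12 by Nanopore. It was led by the gamma-secretase subunits APH1A (150.3 TPM) and PSENEN (149.7), the protease FURIN (40.7) and the fucosyltransferase POFUT1 (29.8). All 10 nuclear cofactors were detected in both libraries, led by SNW1 at 108 TPM, MAML1 at 24.1 and SPEN at 9.20. MAML1, a Mastermind coactivator, had 1 Nanopore and 10168 Illumina counts (ratio of CPM 0.0468, counting interval 0.00118 to 0.261; exact adjusted p = 1.47e-07). SPEN, an RBPJ corepressor, had 2 and 9846 counts (ratio of CPM 0.0966, counting interval 0.0117 to 0.349; exact adjusted p = 2.6e-06). Per union exonic length MAML1 was still called, with a log2 ratio of −2.85 (exact adjusted p = 0.00425), and SPEN was not. Per canonical transcript length neither was called, with MAML1 at −2.14 (exact adjusted p = 0.0934).

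Among 12 regulators of ligand and receptor turnover, NUMB was at 19.9 TPM, ITCH at 11.96, DTX4 at 10.3 and MIB1 at 9.08, and DTX1 was at 0 in both. NEURL1B, a ubiquitin ligase that acts on ligands, was called higher by Nanopore with 15 and 1297 counts, a log2 ratio of 2.30 (exact adjusted p = 2.36e-06). Other HES and HEY genes and NRARP were low, with HES4 at 2.58 TPM, HES7 at 2.43, HES6 at 0.889 and HES2 at 0.457, and HES5 and HEYL at 0 in both. HES4, the only one of these 8 genes that was tested, was called higher by Nanopore. HES4 had 8 Nanopore counts, 19.8 CPM, and 204 Illumina counts, 1.06 CPM, a ratio of 18.6 (counting interval 7.94 to 37.4; exact adjusted p = 2.76e-07). HES4 reached the test only through its Nanopore value, so a gene of its Illumina level had to differ to be tested.

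Of 12 regulators and targets of p53 and p63, 11 were tested. None was called on CPM, against 12.9% (Nanopore) and 7.31% (Illumina) of all tested genes. On CPM, 2 passed the p-value threshold toward Nanopore and 3 toward Illumina, beside 20.2% and 27.2% of all tested genes. Per union exonic length 1 was called toward Nanopore and none toward Illumina, against 15.1% and 3.09% of genes on that scale. The highest levels in this list were those of SFN (14-3-3 sigma) at 582 TPM, PERP, a desmosomal p63 target, at 131, and CDKN1A at 67.9. All 12 basal markers were tested, with a median log2 ratio of −0.95 on CPM. Of these, 2 were called higher by Illumina, ITGA6 at −2.01 among them, against 7.31% of all tested genes. None was called higher by Nanopore, against 12.9%. By the p-value alone 8 basal markers were higher by Illumina and 3 by Nanopore, against 27.2% and 20.2% of all tested genes. The tested luminal markers numbered 5, with a median of 0.12 on CPM and none called, against 12.9% (Nanopore) and 7.31% (Illumina). By the p-value alone 1 luminal marker was higher by Nanopore and none by Illumina. Per union exonic length the medians were 0.40 for the basal and 0.62 for the luminal markers, beside 0.42 over all genes. On that scale no basal marker was called, and 1 luminal marker was called higher by Nanopore. By the p-value alone 6 basal markers were then higher by Nanopore and 3 by Illumina, against 31.2% and 10.6% of genes on that scale. For the luminal markers 2 were higher by Nanopore and none by Illumina.

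**Figure D5:**
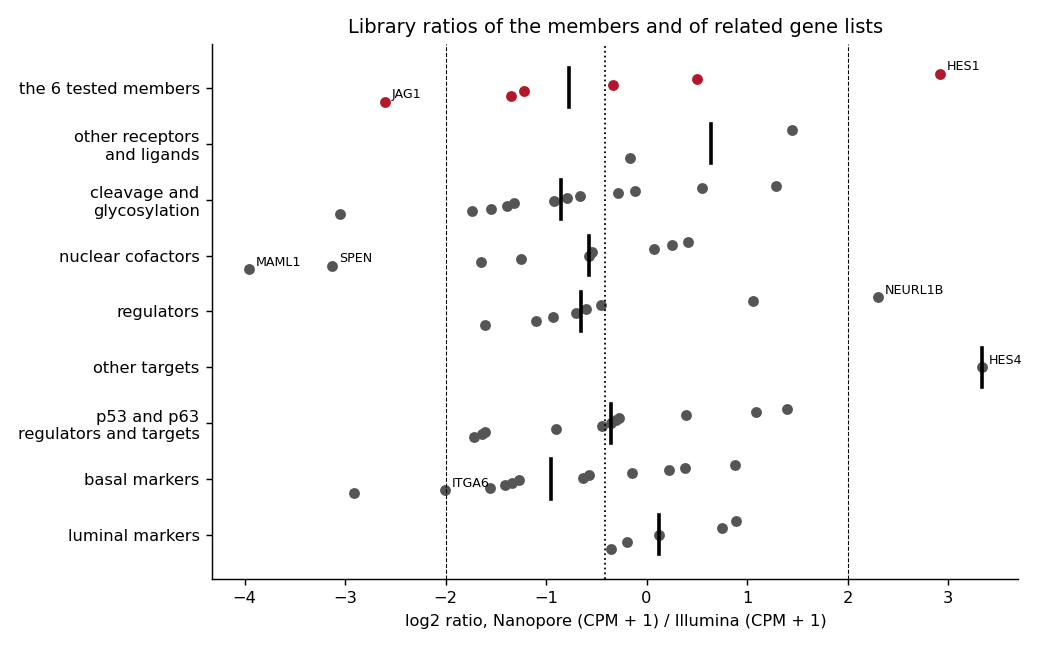
Log2 ratio of Nanopore to Illumina CPM, each plus 1, for the tested members (red) and the tested genes of related lists (grey), with the called genes given in the text named; black bars are list medians, the dotted line is the median of all tested genes (−0.42) and dashed lines mark 4-fold. The members span the range from JAG1 at −2.61 to HES1 at 2.92. HES4 reached the test only through its Nanopore value.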

How the data were processed

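Gene counts came from 1 Nanopore direct RNA and 1 Illumina library. The authors deposited whole-number counts per Ensembl gene without normalization. Per the submitters' processing notes, minimap2 2.11-r797, HISAT2 2.1.0, featureCounts and hg38 were used, with no role stated for each tool. The annotation release, the strand setting and the treatment of reads over several genes are not given in the sources used here, and each bears on overlapping genes. A suffix in the header of the Nanopore table is not explained by the labels. Whether the long reads were corrected with short reads is not given in the sources used here, and if they were, the libraries would not be independent, as every test between them assumes.

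Names, positions and lengths came from GENCODE 44 on hg38, matched by identifier (58207 of 58735). From the deposited counts, CPM, Illumina TPM, Wilson intervals (95%) and two-sided exact binomial tests were computed (Python 3.11.15, scipy 1.17.1). With 1 library per platform no model with replicate spread could be fitted, so the tests compare these 2 libraries, not the platforms. Amplified reads are not independent molecules, so intervals and limits cover counting error only. The test was checked on counts simulated from the Illumina abundances with counting error only, which leaves out effects of length and amplification. Shares within a role were compared with Fisher's exact test, or with an exact binomial test against the Illumina share per length. Sequence shared with other genes was searched in GENCODE transcripts, and alternate contigs with minimap2 2.31. Genes are named if they are members, if they overlap a member with at least 3 Nanopore or 100 Illumina counts, or if in a list they are among the 4 highest in Illumina TPM, called, or at 0 in both libraries. Some genes that this rule would name are not reported here. The microRNA genes inside members, NOTCH2NLA, GC values and further low markers were named after their values were seen. Members and lists were chosen with earlier results of these data known. Alternatives were other pseudocounts, filters, scalings (TMM by edgeR 4.0.16 in R 4.3.3), lengths and a restriction to genes without overlap.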

Additional observations from a re-analysis of the deposited data

How the results depend on the processing

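HES1 was called higher by Nanopore under every alternative tried on either scale. JAG1 was called higher by Illumina under all scalings, pseudocounts and filters tried on CPM. With only genes that overlap no other gene the number of members called higher by Illumina was 0, because JAG1 overlaps another gene and was not tested there. On the per-length scale the members called higher by Nanopore numbered 1, and 2 by canonical transcript length, where JAG2 joined HES1. With mean transcript length the log2 ratio changed sign for TP63, from 0.04 to −0.57, and for NOTCH2, from 1.33 to −0.34, and neither difference was past the threshold, while JAG1 moved from −0.92 to −1.95 and past it (exact adjusted p = 0.0360). Among the other Notch genes, division by union exonic length changed the number called higher by Nanopore from 2 to 5 and the number higher by Illumina from 3 to 1. Over all tested genes the shares called went from 12.9% to 15.1% and from 7.31% to 3.09%. The share of HES1 among the targets was past the threshold by counts and per canonical transcript length, and not per union exonic length. TMM and median-ratio scaling shifted log2 ratios by 0.088 and 0.13. Depth limits all Nanopore values other than that of HES1, and differences of NOTCH3, DLL1 and HEY1 were not detectable. The TP73 difference, with 3 Nanopore counts, was past the threshold per union exonic length (exact adjusted p = 0.0187) and not on CPM (0.142), both over all genes with a count. No paired analysis was possible because each platform had a single library.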
